A study of Homo sapiens with 4 samples.

Results

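Collagens are secreted or membrane-bound proteins whose chains wind into a helix of repeated glycine-containing triplets and make up much of the extracellular matrix. Fibrillar collagens such as types I, III and V assemble into fibres, network collagens such as type IV form the sheets of basement membranes, and the remaining families decorate fibrils, form beaded filaments, anchor epithelia or span the cell membrane. Breast carcinoma cells attach to collagen, cleave it and deposit some of it themselves. The collagen genes described here were all genes with a symbol made of COL, a number, A and a number that were carried by a probe set annotated with a single gene. The rule found 43 genes among the 18417 named genes of the arrays, 11 fibrillar, 9 network and 23 of other classes, and where a gene had several probe sets the one with the highest mean was used.

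Expression was measured on 4 Affymetrix arrays in MDA-MB-231, a breast carcinoma line with mesenchymal-like features. The cells of 2 arrays carried a hairpin with no specific target (shNS), and those of the other 2 a hairpin against DBC1 (shDBC1), a nuclear regulator whose gene symbol is CCAR2. The cells of both groups were untreated and grown in serum-containing medium, and the series describes the replicates of each group as independent and biological. Whether each line is a clone or a pool, and how many hairpin sequences were used, was not stated in the labels. The mesenchymal-like markers VIM, CD44 and FN1 had mean log2 intensities between 11.6 and 12.9. Their log2 differences, shDBC1 minus shNS, were -0.12, -0.18 and -0.48, with 47.7% of all genes tested below 0. Of the 4 epithelial markers, the keratin genes KRT8 and KRT18 had means of 12.5 and 11.9, EPCAM 8.999 and the cadherin gene CDH1 7.45. The target CCAR2 was at 9.62 and 9.41 in shNS and at 8.76 and 8.16 in shDBC1, a 2.08-fold lower mean (log2 difference -1.06, SE 0.23, limma adjusted p = 1). Both shDBC1 arrays thus lay below both controls for the gene that the hairpin targets, without passing the threshold, which CCAR2 passed with the replicate number as a block (limma adjusted p = 0.0232).

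COL4A1 and COL4A2, which encode the most widespread chains of basement membrane collagen, lie head to head and share the region between their start sites. It is shown because the intensities of these genes are compared below. The region is chr13:110307158-110307283 of GRCh38.p14, plus strand, 126 bases, taken from the RefSeq promoter window of COL4A2. Of the collagen genes, 31 had 43 promoter windows of 300 bases in that table (250 before the start and 50 from it on). The upstream 250 bases of COL6A2 (chr21:46097862-46098111, plus strand) and COL6A3 (chr2:237414165-237414414, minus strand) are given with it, as chains of the type VI collagen whose 3 brightest members had the values described further on. Each sequence reads 5′ to 3′ on the strand named, and capitals mark every match, on either strand, to the motifs searched.
COL4A1 and COL4A2, between the starts: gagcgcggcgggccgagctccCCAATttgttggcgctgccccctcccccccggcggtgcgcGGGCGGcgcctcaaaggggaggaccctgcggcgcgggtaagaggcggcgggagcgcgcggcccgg
COL6A2, upstream: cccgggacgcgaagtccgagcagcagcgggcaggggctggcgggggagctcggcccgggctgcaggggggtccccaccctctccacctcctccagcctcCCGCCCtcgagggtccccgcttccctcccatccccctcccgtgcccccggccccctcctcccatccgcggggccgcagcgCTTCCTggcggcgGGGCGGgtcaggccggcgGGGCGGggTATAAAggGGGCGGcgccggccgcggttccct
COL6A3, upstream: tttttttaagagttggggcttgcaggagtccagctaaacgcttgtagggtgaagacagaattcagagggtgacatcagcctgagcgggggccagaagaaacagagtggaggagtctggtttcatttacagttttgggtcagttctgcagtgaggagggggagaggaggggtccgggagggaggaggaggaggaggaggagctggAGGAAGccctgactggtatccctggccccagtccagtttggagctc

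The motifs were the GC box GGGCGG, the CCAAT box CCAAT, the TATA box TATAAA, the PEA3 letters AGGAAG and the AP-1 letters TGANTCA, and none of the matches printed overlapped another. The stretch between COL4A1 and COL4A2 held 1 CCAAT box and 1 GC box and was 80.2% G and C. The COL6A2 stretch held 4 GC boxes, 1 TATA box and 1 PEA3 match at 79.6% G and C, and the COL6A3 stretch held 1 PEA3 match at 56.0%. Over the 43 collagen windows, 55.8% held a GC box against 45.0% of all 35116 promoter windows. The CCAAT box was found in 30.2% against 34.6%, the TATA box in 16.3% against 11.5%, the PEA3 letters in 27.9% against 33.6%, and the AP-1 letters in 2.33% against 7.71%. These are matches of letters and not binding sites, and several genes contributed more than 1 window.

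Collagen intensities were mostly low to moderate. The median over the 43 genes was 7.60 on the log2 scale, against 8.13 over all genes, with a range from 4.86 for COL6A5 to 10.2 for COL12A1. Intensities of different probe sets depend on their probes, so they place a gene within the array and do not rank transcript amounts. The other 3 members with the highest means were COL6A1 at 10.1, COL6A2 at 9.44 and COL5A1 at 9.25. COL12A1 encodes a fibril-associated collagen, the COL6 genes the chains of beaded filaments, and COL5A1 the main chain of the fibrillar collagen that limits fibre width. Genes whose mean fell short of 6.58, the 25th percentile over the arrays, were not tested. This left out 11 collagens, namely the fibrillar COL5A2, COL11A1 and COL24A1, the network COL4A6 and COL10A1, and COL6A5, COL6A6, COL14A1, COL19A1, COL21A1 and COL28A1. How far such dim readings stood above background was not analysed here.

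**Figure D1:**
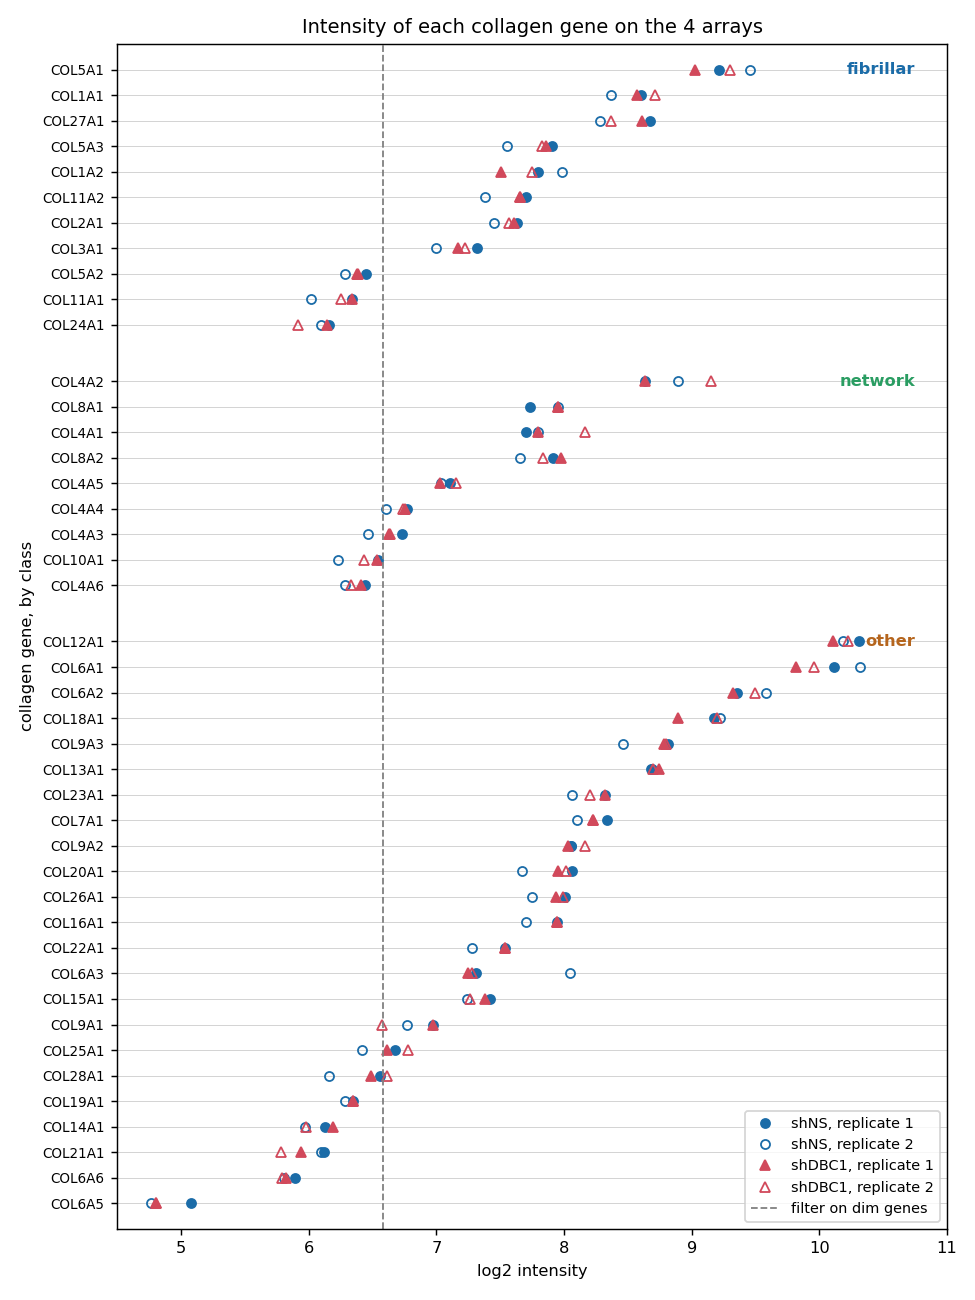
Log2 intensity (x axis) of each of the 43 collagen genes (y axis, grouped by class) on the 4 arrays, with circles for shNS, triangles for shDBC1, filled symbols for replicate 1 and open symbols for replicate 2; the dashed line is the filter at 6.58. The symbols of the groups overlap for most genes, and the open circle of COL6A3 at 8.05 stands to the right of its other 3 readings.

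The comparison of shDBC1 with shNS asked which genes differ when DBC1 is depleted. None of the 32 tested collagens passed the threshold of a limma adjusted p under 0.05, as was the case for all 13813 genes tested (0% called). At an unadjusted limma p under 0.05 there were 0 collagens, against 3.44% of all genes tested (2.57% lower and 0.869% higher in shDBC1), and the smallest unadjusted p was 0.058, for COL6A1. With the replicate number as a block in the fit, 0 collagens passed as well, against 0.818% of genes. The differences ran from -0.41 for COL6A3 to 0.23 for COL4A1, so that 0 collagens differed by 1.5-fold or more, against 1.75% of genes. For 26 of the 32 genes the 95% interval lay wholly within a 1.5-fold difference either way, and for 31 within a 2-fold difference. Of all genes tested, 70.3% and 93.6% had intervals within these limits. The intervals of COL1A2, COL4A1, COL4A2, COL5A1, COL6A1 and COL6A3 reached beyond 1.5-fold, and that of COL6A3 beyond 2-fold. For these collagens the arrays therefore did not bound the difference to 1.5-fold, and the missed threshold does not show equal expression for any collagen.

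Both shDBC1 arrays lay below both shNS arrays for 3 of the 32 collagens, against 13.2% of all genes tested, and above for 2, against 11.6%. COL1A2, COL6A1 and COL6A3 were the 3 below. The 2 above were COL8A1, where the higher shNS array read 7.950 and both shDBC1 arrays 7.954, and the transmembrane collagen gene COL13A1, with 8.68 and 8.69 against 8.74 and 8.70. The median difference over the tested collagens was 0.042, against 0.0065 over all genes tested, and 9 of 32 were below 0, against 47.7% of all genes. When the second shNS array was left out, the median was -0.043 and 24 of 32 differences were below 0, against 52.4% of all genes tested. Both shDBC1 arrays then lay below the remaining shNS array for 16 collagens, against 31.8% of genes, and above it for 4, against 28.4%. When the first shNS array was left out instead, the median was 0.14 and 7 differences were below 0, against 49.1% of genes. Both shDBC1 arrays lay below the remaining array for 6, against 30.7%, and above it for 20, against 33.5%. The median over all genes tested was -0.0085 and 0.0028 in these settings, so the sign of the collagen median depended on which shNS array was used. Of the 14 collagens described with full statistics below, 13 moved by over 1.5 times with 1 array left out, the exception being COL6A1.

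**Figure D2:**
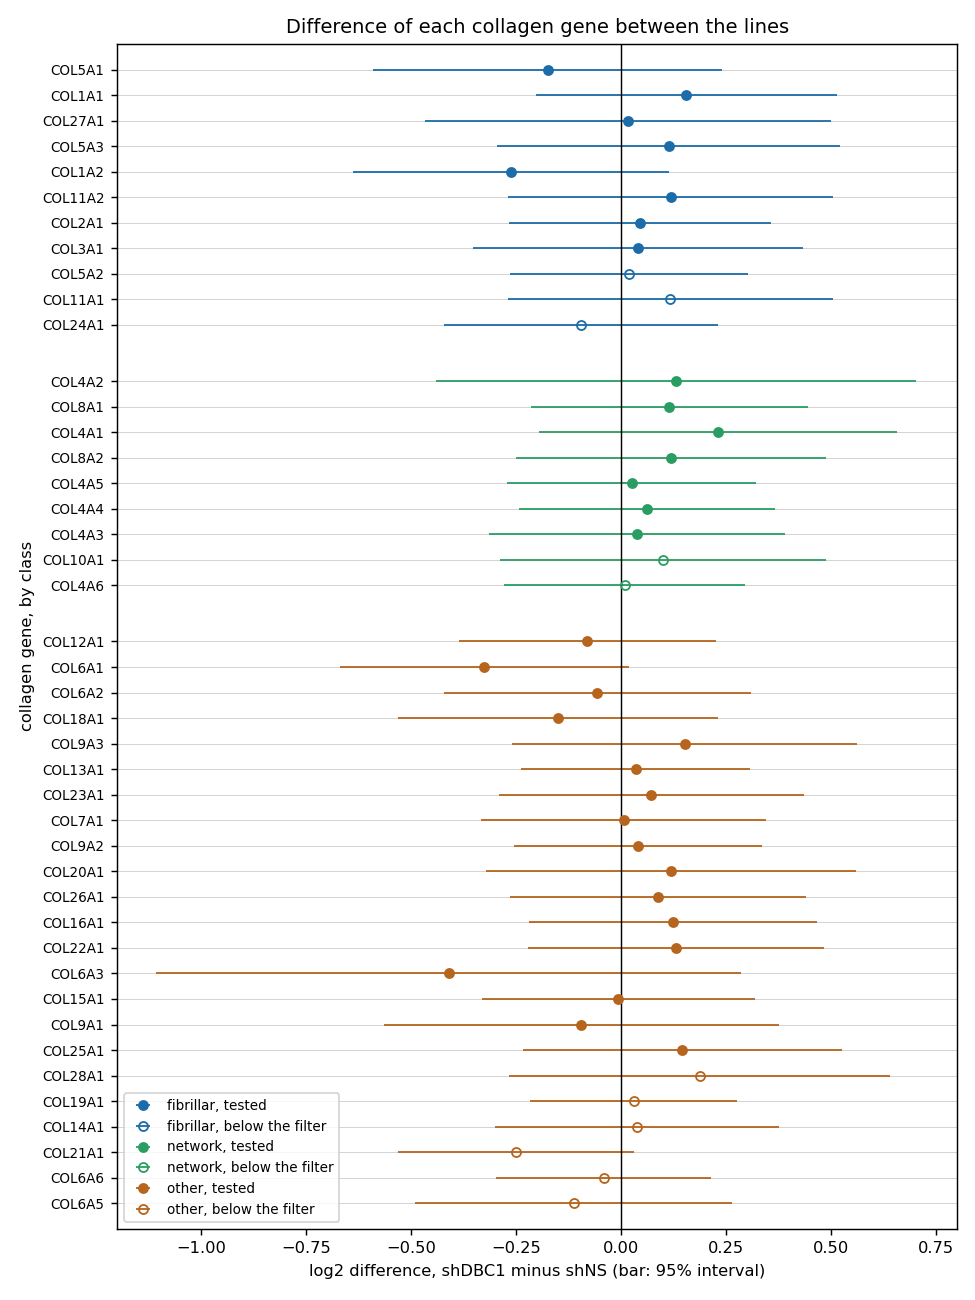
Log2 difference of each collagen gene, shDBC1 minus shNS (x axis), with its 95% limma interval as a bar, by class (y axis); filled symbols are tested genes and open symbols genes below the filter, whose intervals come from the fit without a filter. Every bar crosses 0, including that of COL6A1, which ends at 0.02.

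The 3 tested beaded filament genes, all with differences below 0, encode chains of type VI collagen, a microfibrillar collagen that links cells to the surrounding matrix. COL6A1, the α1 chain, was at 10.1 and 10.3 in shNS and at 9.82 and 9.96 in shDBC1. Both shDBC1 arrays were lower, and the 1.25-fold lower mean (difference -0.33, SE 0.13, interval -0.67 to 0.02) did not pass (limma adjusted p = 1). COL6A2, the α2 chain and the neighbour of COL6A1 on the chromosome, read 9.36 and 9.58 in shNS and 9.32 and 9.499 in shDBC1. Its groups overlapped, with a difference of -0.06 (interval -0.42 to 0.31) that was 0.055 without the second shNS array. COL6A3, the long α3 chain that completes the assembly, was at 7.31 and 8.05 in shNS and at 7.25 and 7.28 in shDBC1. The second shNS array alone stood high. The difference of -0.41 (SE 0.26, interval -1.11 to 0.29) became -0.042 without that array and -0.78 without the first shNS array. COL6A5 and COL6A6, chains related to α3, were below the filter, with means of 4.86 and 5.83.

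Markers of fibroblasts, cells that make much type VI collagen in tissues, were read on the same arrays. Of the 7 listed markers 6 had differences above 0, and their log2 values summed to 42.2 and 44.6 in shNS and to 42.3 and 46.4 in shDBC1. DCN, LUM, FAP and PDGFRA had means between 4.44 and 5.78, below the filter. The other 3, PDGFRB, ACTA2 and THY1, had means of 7.95, 8.32 and 6.68. PDGFRB and ACTA2 were higher on both second arrays, PDGFRB at 7.43 and 8.39 in shNS and at 7.44 and 8.55 in shDBC1. LUM, a small leucine-rich proteoglycan, was highest on the second shDBC1 array, at 7.01. The 5 endothelial markers, 3 above 0, summed to 32.2 and 33.3 in shNS and to 32.7 in each shDBC1 array. Among them PECAM1, singled out after its values were seen, was at 8.23 on the second shNS array and at 6.65 to 6.85 on the others. CDH5, VWF, TEK and KDR, the rest of that list, were each lowest on the second shNS array, at 6.52, 6.01, 5.82 and 6.68. The 4 leukocyte markers, 1 above 0, summed to 30.9 and 32.0 in shNS and to 31.0 and 32.0 in shDBC1. Of these, PTPRC and CD3E had means of 4.49 and 6.08. The macrophage-associated CD68 and CD14 were bright, with means of 11.9 and 9.01, and CD14 was at 9.59 and 9.46 on the second shNS and shDBC1 arrays and at 8.44 and 8.56 on the first. The 4 epithelial markers, 1 above 0, summed to 40.0 and 42.2 in shNS and to 39.5 and 41.8 in shDBC1. Each of them was higher on the second array of both groups. The gap was largest for CDH1, at 6.93 and 8.06 in shNS and at 6.79 and 8.04 in shDBC1. The part of other cells in the COL6A3 reading was not tested.

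Fibrillar collagens had 8 tested members, 6 above 0 and 2 below, with a median difference of 0.042. That median was -0.060 when the second shNS array was left out and 0.21 when the first was. COL1A1 and COL1A2, whose products assemble together into type I collagen, pointed opposite ways. COL1A1 read 8.60 and 8.37 in shNS and 8.57 and 8.71 in shDBC1, so the groups overlapped (difference 0.15, SE 0.14, interval -0.20 to 0.51). Without the second shNS array that difference was 0.039. COL1A2 was at 7.80 and 7.98 in shNS and at 7.51 and 7.75 in shDBC1. Both shDBC1 arrays of COL1A2 lay below both controls (difference -0.26, SE 0.14, interval -0.64 to 0.11), and the difference was -0.14 when the first shDBC1 array was left out. Neither gene passed (limma adjusted p = 1), and whether their differences differ from each other was not tested. COL5A1 read 9.22 and 9.45 in shNS and 9.02 and 9.30 in shDBC1, a difference of -0.17 (SE 0.16) with overlapping groups. It was -0.037 when the first shDBC1 array was left out and -0.056 when the second shNS array was. The remaining tested members, COL2A1 and COL11A2 of cartilage fibres, COL3A1, COL5A3 and COL27A1, all had differences between 0.016 and 0.12 and overlapping groups, with the second shNS array the lowest of the 4.

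Network collagens had 7 tested members, all with differences above 0, from 0.02 to 0.23, and a median of 0.11, which was -0.0096 with the second shNS array left out and 0.047 with the second shDBC1 array left out. COL4A1 read 7.70 and 7.80 in shNS and 7.80 and 8.16 in shDBC1, its second shNS and first shDBC1 values being equal. COL4A2 read 8.63 and 8.89 in shNS and 8.63 and 9.15 in shDBC1. Both genes, which flank the region printed above, had their highest reading on the second shDBC1 array and their lowest on the first shNS array, though for COL4A2 the first arrays of both groups were nearly equal. The differences were 0.23 for COL4A1 (SE 0.16, interval -0.20 to 0.66) and 0.13 for COL4A2 (SE 0.22, interval -0.44 to 0.70). Without the second shDBC1 array they were 0.047 and -0.13, so the direction of COL4A2 turned. The other head-to-head pairs, COL4A3 with COL4A4 and COL4A5 with COL4A6, encode chains of specialised basement membranes such as that of the kidney glomerulus. All of them stayed within a range of 0.26 over the 4 arrays, around means from 6.37 to 7.08. COL8A1 and COL8A2, short-chain collagens that form hexagonal lattices, had means of 7.90 and 7.85.

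**Figure D3:**
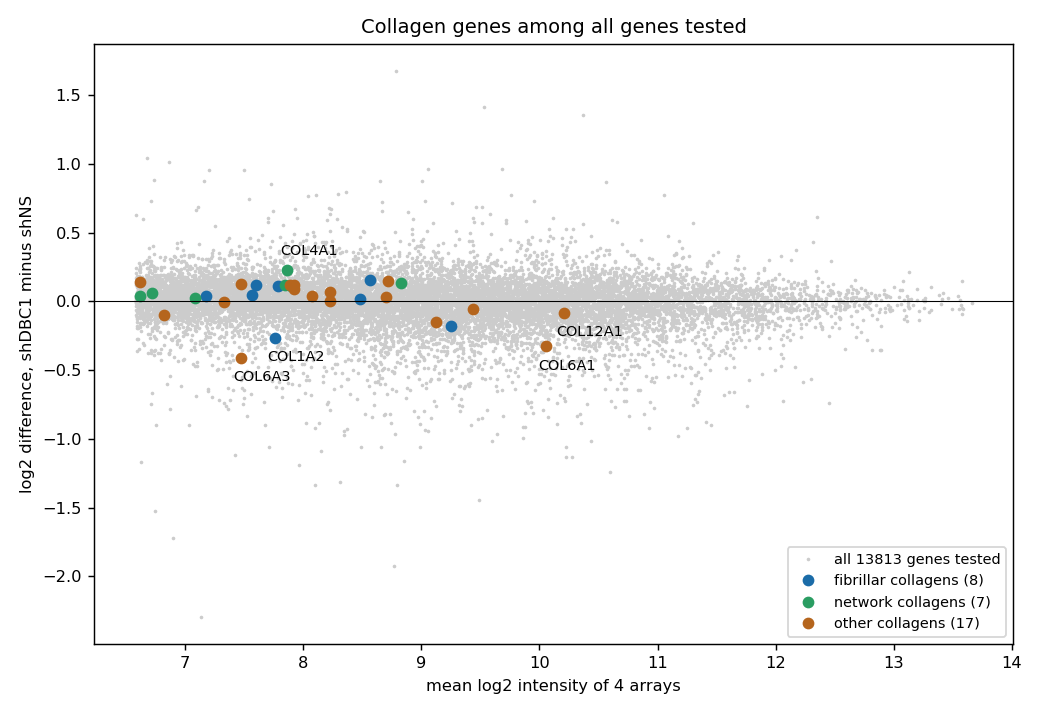
Log2 difference, shDBC1 minus shNS (y axis), against the mean log2 intensity of 4 arrays (x axis) for the 13813 genes tested (grey) and the 32 tested collagens by class (coloured). The collagens lie between -0.41 and 0.23, inside the spread of other genes of like intensity.

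Among the remaining classes, 17 genes were tested, 10 above 0 and 7 below, with a median of 0.034 that was -0.042 with the second shNS array left out. Fibril-associated collagens, which sit on the surface of fibrils, had 7 tested members with 5 above 0 and 2 below. COL12A1, the brightest collagen, read 10.3 and 10.2 in shNS and 10.1 and 10.2 in shDBC1, with a difference of -0.081 (SE 0.12, interval -0.39 to 0.22) that ranged from -0.14 to -0.021 with 1 array left out. COL9A3, a chain of cartilage type IX collagen, read 8.82 and 8.46 in shNS and 8.78 and 8.80 in shDBC1. Its second shNS array alone was low, and the difference of 0.15 (SE 0.16) was -0.027 without it. COL9A1, the partner chain, read 6.97 and 6.77 in shNS and 6.97 and 6.58 in shDBC1, with overlapping groups and a difference of -0.095 (SE 0.18) that ranged from -0.29 to 0.10 with 1 array left out. COL22A1, a collagen of muscle-tendon junctions, read 7.54 and 7.28 in shNS and 7.54 on both shDBC1 arrays, so its difference of 0.13 (SE 0.13) rested entirely on the second shNS array and was 0 without it.

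COL18A1, a basement membrane collagen that carries the endostatin fragment, read 9.18 and 9.22 in shNS and 8.89 and 9.20 in shDBC1. The first shDBC1 array alone was low, and the difference of -0.15 (SE 0.14, interval -0.53 to 0.23) was 0.0034 without it. COL25A1, a transmembrane collagen found in amyloid plaques, read 6.68 and 6.42 in shNS and 6.61 and 6.78 in shDBC1 (difference 0.15, SE 0.14, 0.016 without the second shNS array), close to the filter level. The other 2 tested transmembrane collagens, COL13A1 and COL23A1, were also above 0, and the multiplexin COL15A1 was, like COL18A1, below 0. COL7A1, which builds the anchoring fibrils beneath epithelia, and COL26A1 had differences above 0 and overlapping groups. None of these genes passed the threshold (limma adjusted p = 1 each).

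The array with the low readings was shared by many collagens. The second shNS array was the lowest of the 4 for 18 of the 32 tested collagens (56.2%), against 28.4% of all genes tested, and for 6 of 8 fibrillar members. The pattern went with dim signal: among collagens with a mean under 8.5, a split made for this description, it was lowest for 16 of 23 (69.6%), against 44.9% of the 5659 genes tested in that range. Among collagens of 8.5 or more it was lowest for 2 of 9, against 16.9% of 8154 genes. Collagens under 8.5 deviated from their own means by a median of -0.15 on that array, against -0.05 for all genes of that range, and by 0.07, 0.04 and 0.04 on the first shNS and the first and second shDBC1 arrays. Collagens of 8.5 or more had their lowest median on the first shDBC1 array, at -0.12, against -0.0020 for all genes of that range. The part of signal strength in these readings was not tested.

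**Figure D4:**
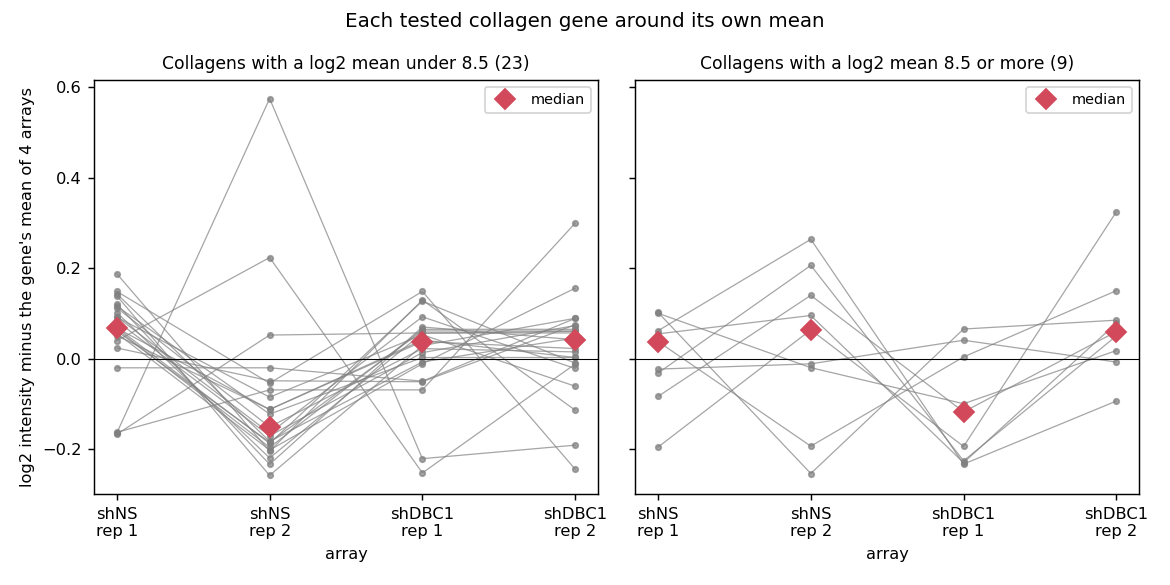
Log2 intensity of each tested collagen minus its own mean of 4 arrays (y axis) on each array (x axis), for 23 collagens with a mean under 8.5 (left) and 9 of 8.5 or more (right); grey lines join the readings of 1 gene and diamonds are medians. On the left the median of the second shNS array is -0.15 and the other 3 lie above 0, with COL6A3 the outlying line upward.

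Equal readings were frequent among collagens. Exactly the same deposited value on 2 or more arrays was found for 8 of the 32 tested collagens (25%), against 8.31% of all genes tested, and on 3 arrays for 2, COL16A1 and COL22A1, against 0.876%. With the genes below the filter included, ties on 2 or more arrays were found for 25.6% of collagens and 11.8% of genes. A comparison with genes of like intensity was not made. COL16A1 read 7.95 on both shDBC1 arrays and the first shNS array and 7.70 on the second shNS array. Among the tested collagens, the 2 shDBC1 values were equal for COL7A1, COL8A1, COL16A1 and COL22A1. For these the spread of that group was 0, and the error of the difference came from the shNS pair and from the variance shared across genes.

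Genes that act on collagen were taken as 5 lists by role. Of 25 tested biosynthesis genes, which hydroxylate, fold and export procollagen, 7 were above 0 and 18 below, against 47.7% of all genes below 0, with a median of -0.065. Both shDBC1 arrays lay above both shNS arrays for 2 of them, against 11.6% of genes, and below for 3, against 13.2%, and none passed the threshold. The second shNS array gave the highest reading for 15 of the 25 biosynthesis genes, against 3585 of the 13813 genes tested. It gave the lowest for 2 of the 25, against 3917 of all genes tested. The lean below 0 thus went with high readings on that array. Against the first shNS array alone, the shDBC1 mean was higher for most of the 25 genes, so the lean did not hold without the second. TMEM38B, an endoplasmic reticulum cation channel needed for collagen modification, read 8.40 and 8.54 in shNS and 8.95 and 8.86 in shDBC1 (difference 0.43, SE 0.11, limma adjusted p = 1). Lysyl hydroxylase PLOD1 read 11.3 and 11.9 in shNS and 10.9 and 11.2 in shDBC1, 1.45-fold lower on average (-0.53, SE 0.23, and -0.27 without the second shNS array). The export factor gene MIA2 differed by -0.34 (SE 0.18), but by -0.12 with its probe sets averaged and by -0.12 without the second shNS array. The prolyl isomerase gene FKBP10 differed by 0.27 (SE 0.16), and by 0.089 without the second shDBC1 array.

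Crosslinking and processing genes had 12 tested members, 5 above 0 and 7 below, with a median of -0.04. Both shDBC1 arrays lay above both shNS arrays for 2 of them, against 11.6% of all genes tested, and below for 2, against 13.2%. TGM2, tissue transglutaminase, read 12.6 on both shNS arrays against 12.3 and 11.8 in shDBC1 (difference -0.56, SE 0.20, and -0.31 without the second shDBC1 array). Lysyl oxidase LOX read 10.9 and 11.7 in shNS and 10.2 and 11.3 in shDBC1. Its replicates differed by more than its groups, and the difference of -0.55 (SE 0.45) was -0.0095 without the first shDBC1 array. LOXL2, a related oxidase, differed by -0.27 (SE 0.16, and -0.10 without the first shDBC1 array) and PCOLCE, the enhancer of propeptide removal, by 0.24 (SE 0.12). Of 9 tested receptors 4 were above 0 and 5 below. The shDBC1 pair lay wholly above the shNS pair for 0 of them and wholly below for 2, against the same shares of genes. The collagen-binding integrin gene ITGA2 was at 11.6 and 11.7 in shNS and at 10.98 and 10.4 in shDBC1, 1.97-fold lower (-0.98, SE 0.22, limma adjusted p = 1). ITGB1, which encodes the β1 partner of that integrin, was outside the rule for named genes, with 12.1 and 12.3 in shNS and 12.1 and 12.2 in shDBC1. The receptor tyrosine kinase gene DDR1 differed by -0.44 (SE 0.42), which was 0.0038 without the second shNS array. ADGRG6 and ADGRG1, adhesion receptors with collagen ligands, differed by 0.28 (SE 0.18) and 0.21 (SE 0.19), and with 1 array left out they were as low as 0.099 and -0.018.

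Collagen-cleaving proteases and their inhibitors had 13 tested members, 4 above 0 and 9 below. For 5 of them the shDBC1 pair lay wholly below the shNS pair, against 13.2% of all genes tested, and for 1 wholly above, against 11.6%. The list was chosen with earlier results of these data known, so these counts are a description only. Interstitial collagenase MMP1, which cuts fibrillar collagen, was at 11.4 and 11.1 in shNS and at 9.95 and 10.0 in shDBC1 (-1.24, SE 0.15). TIMP3, an inhibitor bound to the matrix, read 12.2 and 12.7 against 11.5 and 11.9 (-0.72, SE 0.25, and -0.47 without the second shNS array). The cathepsin genes CTSS and CTSK differed by -0.59 (SE 0.13) and -0.35 (SE 0.11). None of these 4 genes passed the threshold (limma adjusted p = 1 each), but with the replicate number as a block MMP1 (limma adjusted p = 0.0184) and TIMP3 (limma adjusted p = 0.0291) did. Of 12 tested matrix partners 7 were above 0 and 5 below. The shDBC1 pair lay wholly above the shNS pair for 3 of them and wholly below for 1, against the same shares of genes. Fibronectin (FN1) read 11.5 and 12.1 in shNS and 11.1 and 11.6 in shDBC1 (-0.48, SE 0.29, and -0.17 without the second shNS array), with overlapping groups. CTHRC1, TNC and FBN1 differed by 0.25, 0.22 and 0.17, and with 1 array left out by as little as 0.11, 0.091 and 0.11, and DCN, LUM and POSTN were below the filter.

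**Figure D5:**
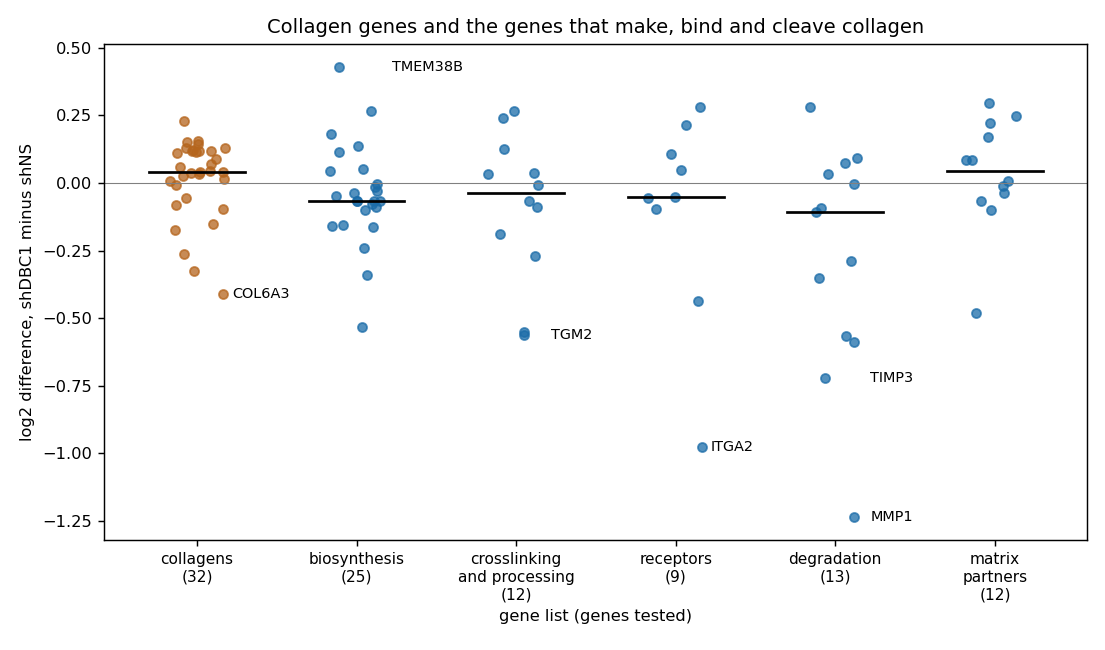
Log2 difference, shDBC1 minus shNS (y axis), of each tested gene (point) in the collagens and the 5 lists of genes that act on collagen (x axis, number tested in brackets), with horizontal bars for the medians; the sideways scatter is only for display. The collagens span -0.41 to 0.23, and MMP1 (-1.24), ITGA2 (-0.98) and TIMP3 (-0.72) lie below that range.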

How the data were processed

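Per the submitters' processing notes, the authors used GCOS and RMA, and the deposited values are taken as log2 intensities per probe set, a scale inferred from their range. Their versions, filters and build: not given in the sources used here. Of 33297 probe sets, 19460 had 1 gene symbol in the platform annotation, 1754 several and 12083 none listed, and 19429 of the single symbols matched RefSeq. Each of 18417 genes took its brightest probe set, genes below the 25th percentile of means (6.58) were left out, and 13813 entered a limma fit (version 3.58.1, R 4.3.3, lmFit and eBayes) with a term for group alone (two-sided, Benjamini-Hochberg over all genes, threshold 0.05; 2 residual and 2.60 prior degrees of freedom). Precision is limited by having 2 arrays a group. The collagen and companion lists were chosen with earlier results of these data known. Full statistics went to the tested collagens with the 6 highest and 6 lowest differences and the 4 highest means, to CCAR2, and to the 4 genes with the smallest p in each companion list. On simulated data for this comparison (13813 genes, 20 runs, 200 changed genes) the procedure recovered 19% of 2-fold and 84% of 4-fold changes, with a mean of 6.2 false calls. The simulated noise was independent between arrays, whereas real arrays of the same replicate number deviated together. The rates may therefore not hold for these data. Promoter windows came from RefSeq (GRCh38.p14).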

Additional observations from a re-analysis of the deposited data

How the results depend on the processing

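The alternatives were no filter, a filter at the 50th percentile, a second quantile normalisation, centring on the median, averaged probe sets, a replicate block, a trended and a robust prior, and leaving out each array. The 0 collagens past the threshold stayed at 0 under all 12. The count over all genes was 0 except with the replicate block, where limma called 113 genes (19 higher, 94 lower), 0 of them collagens. There COL1A2, COL6A1 and COL6A3 had an unadjusted p under 0.05, and the smallest adjusted p of a collagen was 0.225. Same-numbered arrays deviated together (correlation 0.653 across genes, 0.482 across tested collagens), but with 2 numbers and no label for what they share, the block is not taken as a pairing. CCAR2 (adjusted p = 0.0232), MMP1 (adjusted p = 0.0184) and TIMP3 (adjusted p = 0.0291) passed with the block in limma. With all 4 arrays, the 14 named collagens and 21 other named genes kept their direction under the 8 alternatives, but the 50th percentile filter left only 12 collagens. The filters, the block and the priors cannot change a difference, and averaging can do so only for genes with several probe sets. For the named collagens only the second quantile normalisation and the centring could therefore have turned a direction.

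Leaving out 1 array unbalances the replicate numbers, and the lone array is assumed to vary like the others. The median collagen difference then ranged from -0.043 to 0.14. Class medians ranged from -0.060 to 0.21 (fibrillar), -0.0096 to 0.14 (network) and -0.042 to 0.081 (other). With 1 array left out, 13 of 14 named collagens and 14 of 21 other named genes moved by over 1.5 times. Of the 14 named collagens 8 kept their direction, and COL22A1 was at 0 without the second shNS array. Ranges that crossed 0 were -0.027 to 0.33 for COL9A3, -0.13 to 0.39 for COL4A2, -0.30 to 0.0034 for COL18A1, -0.29 to 0.10 for COL9A1, -0.17 to 0.055 for COL6A2, -0.018 to 0.45 for ADGRG1 and -0.88 to 0.0039 for DDR1. The causes were not tested. Dim signal and 2 arrays per group limit what can be seen.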

Other observations

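COL11A2 had 3 probe sets with a single symbol. The chosen one had a mean of 7.60 and the other 2 had identical values on each array, with a mean of 7.03. A further probe set carried COL1A2 together with the pancreatic lipase gene PNLIP and had a mean of 4.93, and it was not used. The antisense gene COL18A1-AS1, which the rule does not take, read between 6.58 and 6.78. Among the tested collagens the second shDBC1 array read below the first for 10 of 32 (31.2%), against 50.1% of all genes tested, and the second shNS array below the first for 21 of 32 (65.6%), against 50% of all genes tested.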
